A study of Arabidopsis thaliana with 8 samples.

Results

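The auxin response genes described here are 40 genes of Arabidopsis thaliana that respond to auxin early or hold the response in check, listed by locus tag in 3 families. They are 28 Aux/IAA genes, 6 of the group II GH3 genes and the 6 genes SAUR19 to SAUR24. The array's transcript accessions led to a probe for 37 of them, out of 25410 genes matched in all, and IAA9, IAA32 and SAUR24 were not analysed here. A further 4 genes, IAA31, IAA34, GH3.1 and GH3.2, had probes too dim to be tested, which left 33 members among the 19463 genes tested.

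Gene expression was measured with 1-color Agilent oligonucleotide arrays in 4 groups of 2 arrays each (n = 2). The groups were plants overexpressing ThbZIP1, a bZIP transcription factor of the salt-tolerant shrub Tamarix hispida, with ABA (OE under ABA), wild-type Col-0 with ABA (WT under ABA), the overexpression plants in water (OE in water) and Col-0 in water (WT in water). ABA was given at 10 µM, all plants were 4 weeks old, and each treatment lasted 3 h. The OE plants were T3 homozygous, whole plants with root and shoot were pooled for each array, and neither the promoter that drives ThbZIP1 nor the number of lines pooled is given in the sources used here.

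Auxin acts by bringing Aux/IAA proteins, the repressors of auxin response factors (ARFs), to TIR1 and AFB receptors, after which the repressors are degraded and the ARFs activate transcription. Most Aux/IAA genes are themselves induced by auxin, so the repressors are renewed as they are consumed. Group II GH3 genes encode enzymes that join auxin to amino acids and so lower the free hormone, and SAUR19 to SAUR24 encode small, short-lived proteins that promote cell expansion by keeping plasma membrane proton pumps active.

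Each signal is given as the log2 processed signal minus the 75th percentile of its own array, so that 0 is the array's own 75th percentile and a difference of 1 is 2-fold. A gene was called when its adjusted p was under 0.05 and its difference was at least 2-fold (limma fit over all 8 arrays, Benjamini-Hochberg adjustment over 31267 probes). A single slide, scan day and version of the array design served the 4 OE arrays, while 3 further slides, a second day and a second version served the 4 WT arrays, so OE against WT cannot be told apart from these. Of the WT arrays, both in water shared a slide, while the 2 under ABA lay on a slide each. One label field names another transcription factor, an insertion line and salt for some of these arrays, and the groups used here follow the titles, source names, genotype and treatment labels. On WT in water replicate 1, 1148 spots were outliers and were left out, against 6 to 24 on the other arrays. The arrays carry no probe known here for ThbZIP1, so the transgene was not checked. Of 9 ABA-induced genes, all 9 had positive log2 differences between ABA and water in both genotypes, and 7 were called in OE and 6 in WT. All 6 shoot markers were well above background in every group, whereas the root markers PIN2 and MRN1 were well above background on no array, although the labels name whole plants, and 3 to 4 of 8 root markers were above background in each group. Their summed linear signal, in units of the 75th percentile, was 38.7 to 46.7 in OE under ABA and 8.78 to 24.7 in WT under ABA, and 27.6 to 31.4 in OE in water and 7.44 to 31.8 in WT in water. The summed linear signal of 8 floral markers was 0.676 to 2.19 in OE under ABA and 0.115 to 0.125 in WT under ABA, and 1.83 to 3.56 in OE in water and 0.0943 to 0.421 in WT in water. The part of root and flower tissue in the results below was not tested.

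In the plants given water, 5 of the 33 tested members were called between OE and WT, against 19.2% of all tested genes (9.86% higher and 9.36% lower in OE), so that the members were called no more often than genes at large. IAA33, IAA6 and IAA14 were higher in OE, and IAA2 and GH3.5 were lower. Under ABA, 2 members were called, IAA20 and IAA33, both higher in OE, against 9.91% of all tested genes (4.29% higher and 5.62% lower). Between ABA and water, no member was called in either genotype. IAA20 and IAA33 passed the filter on dim probes only through the OE arrays, so that they had to differ to be tested at all. Among the 31 other members, all above background on all 8 arrays, 0 were called under ABA and 4 in water, against 9.67% and 18.5% of genes above background on all arrays. Without OE in water replicate 2, 1 member was called in water, IAA33, against 8.75% of all tested genes. Without WT under ABA replicate 1, 1 member was called under ABA, IAA5, against 2.60% of all tested genes, and without replicate 2 likewise 1, IAA4, against 3.45%. With normexp background correction in place of the scanner's processed signals, 0 members were called under ABA, against 1.50% of all tested genes, and 1, GH3.5, in water, against 6.36%, so that calls became fewer over all genes as well. Comparisons that use the same arrays, such as OE against WT in water and ABA against water in OE, are not independent of each other.

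**Figure D1:**
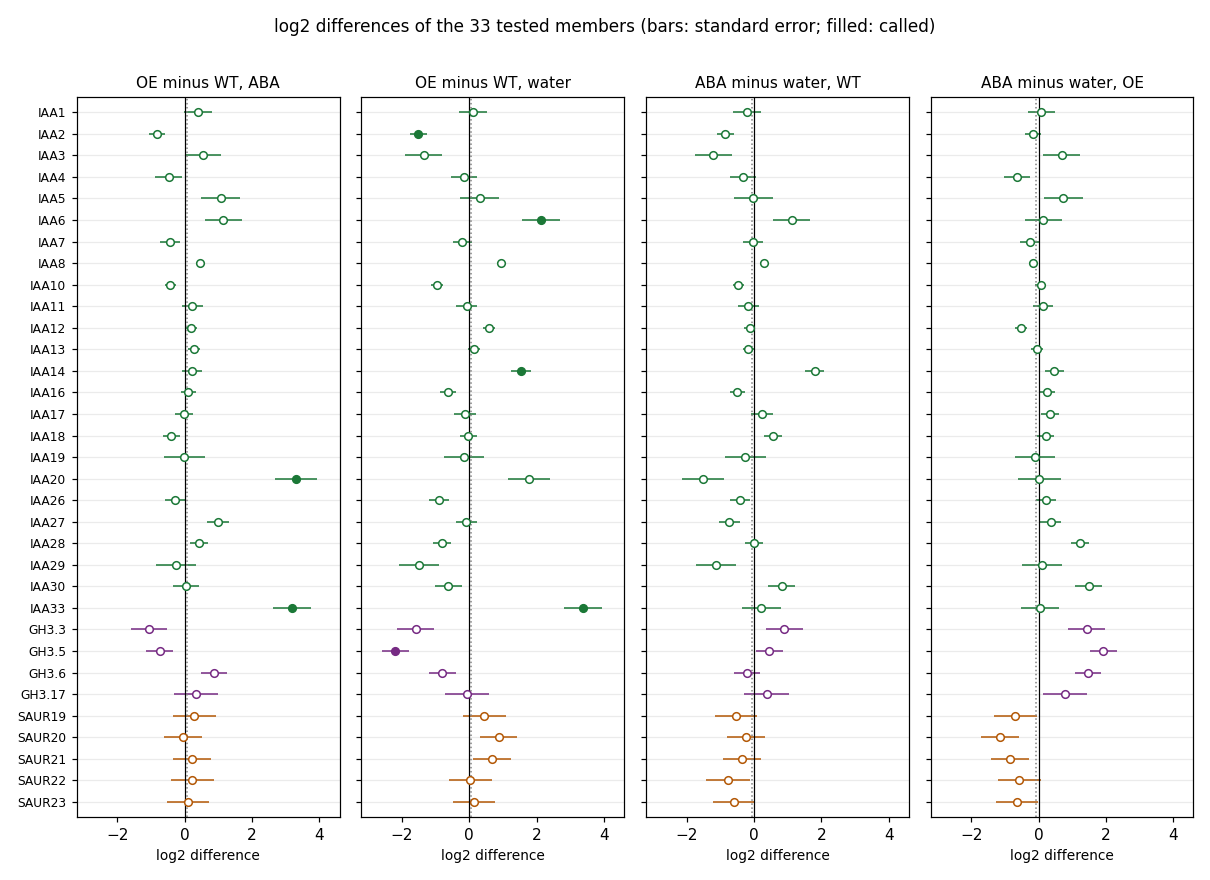
The log2 difference of each of the 33 tested members is plotted in 4 panels, from left to right OE minus WT under ABA, OE minus WT in water, ABA minus water in WT and ABA minus water in OE. Bars are standard errors, filled points are called genes, the dotted line is the median of all tested genes, and green, purple and brown mark Aux/IAA, GH3 and SAUR genes. The 7 filled points all lie in the first 2 panels.

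Between OE and WT in water, the 24 tested Aux/IAA genes had a median log2 difference of -0.11, beside 0.06 for all tested genes, and 9 of the 24 were positive. Among those called, IAA2 (AT3G23030), a canonical repressor with the degron that auxin receptors bind, had log2 signals of 3.59 and 3.69 in OE, against 5.08 and 5.23 in WT. Both OE arrays lay below both WT arrays, and the arrays of each pair were close together. It fell by 1.51 on the log2 scale (standard error 0.25, adjusted p = 0.00978, limma). Its second probe was also called, and fell by 2.27. Without OE in water replicate 2 the adjusted p of IAA2 was 0.0509.

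IAA14 (AT4G14550), whose stabilized form blocks lateral root initiation, had signals of -1.60 and -0.88 in OE in water, against -3.04 and -2.51 in WT in water. Both OE arrays were higher than both WT arrays, and the log2 difference was 1.54 (standard error 0.29, adjusted p = 0.0147, limma). Its second probe was called as well, with a log2 difference of 2.09. The probe used here was not called without OE in water replicate 2 (1.18, adjusted p = 0.0623) or without WT in water replicate 1 (1.27, adjusted p = 0.0573).

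IAA6 (AT1G52830), known from a mutant with short hypocotyls, had signals of -0.92 and -1.0 in OE in water and -3.52 and -2.66 in WT in water. The groups did not overlap, and the log2 difference was 2.13 (standard error 0.55, adjusted p = 0.0334, limma). This call was the least stable of the 5, and was lost without any 1 of the 4 arrays compared, with adjusted p-values of 0.109 without OE in water replicate 1, 0.12 without OE in water replicate 2, 0.13 without WT in water replicate 1 and 0.0585 without WT in water replicate 2.

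IAA33 (AT5G57420) encodes a divergent family member without the degron, which acts in the root tip. In water its signals were -5.19 and -5.76 in OE, well above background on both arrays, against -8.83 and -8.90 in WT, not well above background on either. From the processed signals, IAA33 was therefore at least 2.25-fold higher in OE in water (adjusted p = 0.0105, limma). Each bound of this kind sets the OE mean against the WT probe's own signal or the dimmest signal that still passed as well above background on that array, whichever was higher. It holds for the processed signals only. The probe passed the filter on dim probes only through the OE arrays, so the p-values of IAA33 are not separate support for the difference. With normexp background correction the log2 difference in water was 0.56, smaller than that bound, and was not called (adjusted p = 0.789). Under ABA its signals were -4.56 and -6.32 in OE, well above background on 1 of the 2 arrays, and -8.38 and -8.89 in WT, on neither. It was called higher in OE under ABA (adjusted p = 0.0197, limma), and no fold is given, since OE under ABA replicate 2 was itself not well above background. The call under ABA was lost with normexp (log2 difference 2.05, adjusted p = 0.193), when only the 2 groups compared were fitted (adjusted p = 0.0644), and without WT under ABA replicate 1 (adjusted p = 0.0808) or replicate 2 (adjusted p = 0.0961).

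IAA20 (AT2G46990) also lacks the degron, and its protein is long-lived. Under ABA it had signals of -5.94 and -4.66 in OE, against -8.43 and -8.80 in WT, where the probe was not well above background. It was at least 2.15-fold higher in OE (adjusted p = 0.0231, limma). Since the probe passed the filter on dim probes only through the OE arrays, this p-value is not separate support for the difference. That call was lost with normexp (log2 difference 2.13, against 3.31 from the processed signals, adjusted p = 0.13) and without OE under ABA replicate 2 (adjusted p = 0.0664), WT under ABA replicate 1 (adjusted p = 0.0977) or WT under ABA replicate 2 (adjusted p = 0.105). In water the signals were -4.60 and -6.07 in OE and -6.72 and -7.49 in WT, again not well above background, and the groups did not overlap but the difference was not called (adjusted p = 0.0774, limma). The close relative IAA30 (AT3G62100) was measured on all arrays and had log2 differences of 0.05 (standard error 0.39) under ABA and -0.62 (standard error 0.39) in water between OE and WT, neither called. The dim relative IAA31 was well above background on no array, and IAA34 was on 1 array of each OE group and on no WT array.

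**Figure D2:**
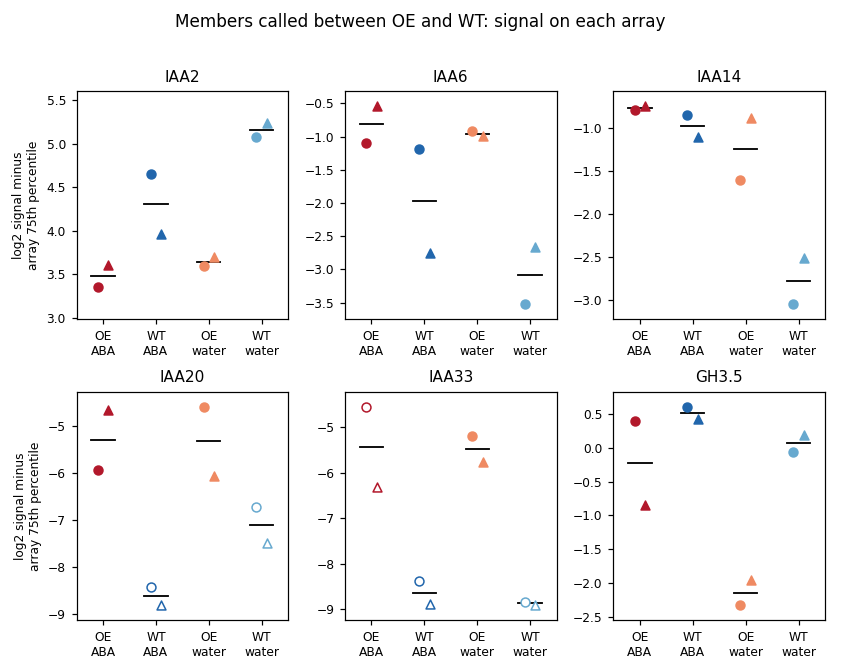
The log2 signal minus the array's 75th percentile (y axes, each with its own range) is plotted for the 6 members called between OE and WT in the 4 groups, with circles for replicate 1, triangles for replicate 2 and a line for the mean. Open symbols mark groups in which fewer than 2 arrays were well above background. OE in water is above WT in water for IAA6, IAA14, IAA20 and IAA33, and below it for IAA2 and GH3.5.

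The other tested Aux/IAA genes were not called in any comparison. In water, IAA8, IAA10 and IAA12 passed the adjusted p but not the minimum fold. IAA8 (AT2G22670), a repressor with a part in lateral roots and vascular tissue, had signals of 4.69 and 4.70 in OE and 3.75 and 3.75 in WT in water and a log2 difference of 0.94 (adjusted p = 0.00543, limma). IAA10 (AT1G04100) was 0.95 lower on the log2 scale (log2 difference -0.95, adjusted p = 0.0127, limma), and IAA12 (AT1G04550), the BODENLOS repressor of embryonic root formation, had a log2 difference of 0.59 (adjusted p = 0.0434, limma). Under ABA, IAA8 had 0.47 (adjusted p = 0.0507) and IAA10 had -0.43 (adjusted p = 0.14), neither called. Apart from IAA20, the remaining Aux/IAA genes had log2 differences from -1.49 for IAA29 to 0.31 for IAA5 in water. Under ABA the 22 genes not called had log2 differences from -0.83 for IAA2 to 1.15 for IAA6. Under ABA the 2 probes of IAA14 differed in call. The probe used, which had the higher mean signal, had a log2 difference of 0.21 (adjusted p = 0.644), and the other probe 1.27 (adjusted p = 0.0222), with the same sign. IAA17 (AT1G04250), the AXR3 repressor, lacked a value on WT in water replicate 1, so that its log2 difference of -0.13 in water rests on 1 WT array.

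Of the group II GH3 genes, GH3.5 (AT4G27260), whose enzyme conjugates auxin and also acts on salicylic acid, was the member called in water. Its signals were -2.32 and -1.96 in OE, against -0.06 and 0.18 in WT, and the groups did not overlap. It fell by 2.20 on the log2 scale (standard error 0.40, adjusted p = 0.0129, limma), and its second probe fell by 2.17 (adjusted p = 0.0108). The call was lost, with little change in size, without OE in water replicate 1 (log2 difference -2.02, adjusted p = 0.057), OE in water replicate 2 (-2.38, adjusted p = 0.0541) or WT in water replicate 2 (-2.08, adjusted p = 0.0572). Under ABA GH3.5 had signals of 0.40 and -0.85 in OE and 0.60 and 0.43 in WT, and its log2 difference of -0.74 was not called (adjusted p = 0.245).

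The other GH3 genes among the 6, which also encode auxin-conjugating enzymes, were not called in any comparison. GH3.3 (AT2G23170) had signals of -1.97 and -1.17 in OE in water, against -0.03 and 0.06 in WT in water, with no overlap and a log2 difference of -1.59 (adjusted p = 0.0714, limma). Under ABA its signals were 0.30 and -0.60 in OE and 1.61 and 0.23 in WT, which overlapped. GH3.6 (AT5G54510), known as DFL1, had 0.28 and 0.00 in OE in water and 1.11 and 0.77 in WT in water, without overlap. Under ABA the order was the reverse, with 2.20 and 1.02 in OE and 0.59 and 0.88 in WT, also without overlap, and neither log2 difference, 0.87 under ABA and -0.80 in water, was called (adjusted p = 0.17 and 0.166). GH3.17 (AT1G28130) had -0.98 and -2.45 in OE under ABA, -2.60 and -1.50 in WT under ABA, -2.42 and -2.56 in OE in water and -1.78 and -3.07 in WT in water, so that every pair of groups overlapped between OE and WT. GH3.1 (AT2G14960) was well above background on no array and GH3.2 (AT4G37390) on 1 of 8, OE under ABA replicate 1. Over the 4 tested GH3 genes, all 4 log2 differences between OE and WT in water were negative, with a median of -1.19, beside 0.06 for all tested genes, and under ABA 2 of 4 were negative, with a median of -0.20. These 4 are not the whole of group II, since GH3.9, a group II gene that is not among the members, was higher in OE in water, as described with the other auxin genes.

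Between ABA and water, 0 of 33 members were called in OE, against 2.12% of all tested genes, and 0 of 33 in WT, against 0.843% (limma). At an unadjusted p under 0.05 there were 6 members in OE, against 15.8% of all tested genes, and 4 in WT, against 17.4%, and the methods' t-test called 0 members in either genotype at its unadjusted threshold with a 2-fold minimum. In OE the 4 tested GH3 genes all had positive log2 differences, with a median of 1.45, beside -0.06 for all tested genes. GH3.5 was at 0.40 and -0.85 under ABA and -2.32 and -1.96 in water, a log2 difference of 1.92 (adjusted p = 0.0855), which missed the adjusted threshold except when OE under ABA replicate 2, the lower of the ABA arrays, was left out (log2 difference 2.54, adjusted p = 0.0388). GH3.6 had 1.47 (adjusted p = 0.149), GH3.3 had 1.43 (adjusted p = 0.296) and GH3.17 had 0.78 (adjusted p = 0.613). For each of GH3.3, GH3.5 and GH3.6 both ABA arrays lay above both water arrays, and the share of all tested genes separated in this way was not counted. All 4 genes were higher on OE under ABA replicate 1 than on replicate 2, by 0.90 to 1.47. In WT the median over the 4 genes was 0.41, with 3 of 4 positive, and GH3.5 had 0.45 (adjusted p = 0.629).

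**Figure D3:**
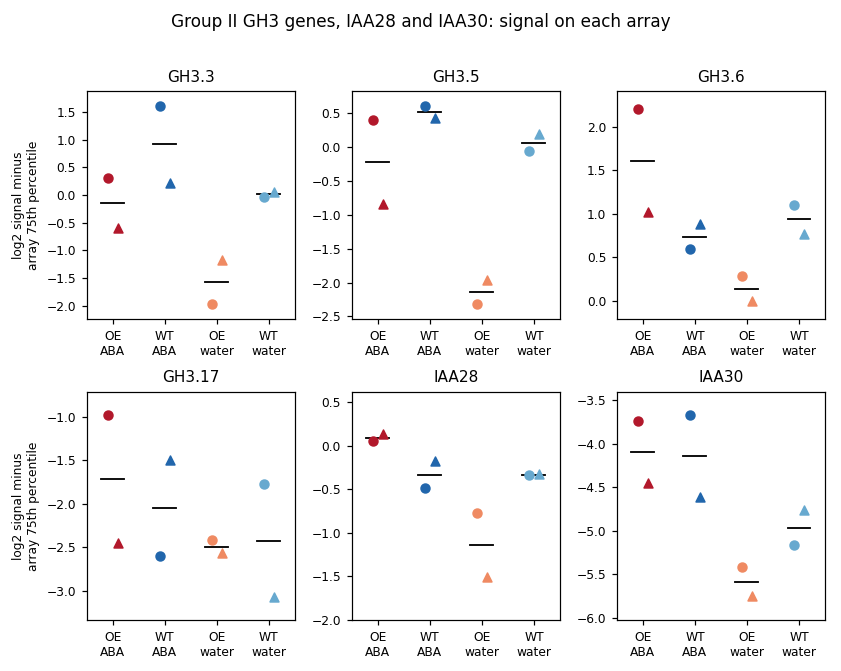
The log2 signal minus the array's 75th percentile (y axes, each with its own range) is plotted for the 4 tested GH3 genes, IAA28 and IAA30 in the 4 groups, with circles for replicate 1, triangles for replicate 2 and a line for the mean. Both arrays of OE in water lie below both of OE under ABA for GH3.3, GH3.5, GH3.6, IAA28 and IAA30, none of them called. How many of all tested genes were separated in this way was not counted.

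Among the Aux/IAA genes, the median log2 difference between ABA and water was 0.12 in OE, with 17 of 24 positive, and -0.16 in WT, with 7 of 24 positive, beside -0.06 and -0.05 for all tested genes. IAA30 had signals of -3.74 and -4.45 in OE under ABA and -5.42 and -5.75 in OE in water, the largest positive difference of the family in OE (1.49, adjusted p = 0.145). IAA28 (AT5G25890), a repressor that restrains lateral root formation, had 0.06 and 0.13 in OE under ABA and -0.77 and -1.51 in OE in water, a log2 difference of 1.24 (adjusted p = 0.0855). Neither was called. For both genes the ABA arrays lay above the water arrays, and the share of all tested genes separated in this way was not counted. The largest negative difference in OE was that of IAA4 (AT5G43700), with 0.77 and 0.81 under ABA and 1.39 and 1.46 in water, a log2 difference of -0.64 (adjusted p = 0.489).

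In WT, IAA14 had signals of -0.85 and -1.10 under ABA, against -3.04 and -2.51 in water, without overlap. Its log2 difference of 1.80 (standard error 0.29) narrowly missed the threshold (adjusted p = 0.0674, limma), and its second probe had 1.46 (adjusted p = 0.0653). With the slide as a random block IAA14 was called, but that setting called 526 of all tested probes in this contrast, against 251 without it. In OE the same contrast gave 0.47 (adjusted p = 0.496). IAA3 (AT1G04240), the SHY2 repressor that limits the root meristem, had the most negative difference among the family's genes above background in both WT groups, with signals of 1.28 and 0.83 under ABA and 3.1 and 1.42 in water, a log2 difference of -1.21 (adjusted p = 0.341). Its WT arrays in water lay 1.68 apart, and replicate 1 of that pair is the array with the many outlier spots.

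The genotype by treatment interaction, the log2 ABA response in OE minus that in WT, was called for 0 members and 0% of all tested genes (limma), with 6 members at an unadjusted p under 0.05, against 11.9% of all tested genes. The highest value among the Aux/IAA genes was 1.90 for IAA3 (adjusted p = 0.416), whose signals were 1.70 and 1.5 in OE under ABA and 0.61 and 1.21 in OE in water, beside the WT values above. The lowest was -1.33 for IAA14 (adjusted p = 0.326), which had -0.79 and -0.74 in OE under ABA. GH3.6 had 1.67 (adjusted p = 0.341), GH3.5 had 1.46 (adjusted p = 0.4), IAA28 had 1.24 (adjusted p = 0.307) and IAA8 had -0.47 (adjusted p = 0.376). The ABA response of these genes is therefore not shown to differ between OE and WT.

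The SAUR genes lie next to each other on chromosome 5 and are highly similar, and the probe sequences were not used here, so signal from one gene at another's probe cannot be told apart and the 5 tested genes are not 5 independent measurements. SAUR19 (AT5G18010) had signals of -0.29 and 0.40 in OE under ABA, 0.75 and -1.22 in WT under ABA, 0.63 and 0.85 in OE in water and 0.06 and 0.52 in WT in water. SAUR20 (AT5G18020) had -0.18 and 0.65 in OE under ABA, 1.11 and -0.56 in WT under ABA, 1.18 and 1.56 in OE in water and 0.45 and 0.55 in WT in water. The water arrays of OE lay above those of WT for both genes, and the ABA arrays overlapped. SAUR21 (AT5G18030) had 0.66 and 1.41 in OE under ABA, 1.68 and -0.03 in WT under ABA, 1.71 and 2.04 in OE in water and 1.07 and 1.32 in WT in water, the same pattern. SAUR22 (AT5G18050) had 1.25 and 1.84 in OE under ABA, 2.29 and 0.33 in WT under ABA, 2.00 and 2.23 in OE in water and 1.72 and 2.44 in WT in water. SAUR23 (AT5G18060) had 0.70 and 1.31 in OE under ABA, 1.86 and -0.06 in WT under ABA, 1.47 and 1.82 in OE in water and 1.23 and 1.76 in WT in water, so that OE and WT overlapped for SAUR22 and SAUR23 in both conditions. In every one of the 5 genes WT under ABA held both the highest and the lowest array of the ABA groups.

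None of the 5 SAUR genes was called in any comparison. Between OE and WT their log2 differences ran from -0.04 to 0.29 under ABA and from 0.04 to 0.87 in water, with medians of 0.21 and 0.45, and the lowest adjusted p was 0.274, for SAUR20 in water. Between ABA and water all 5 were negative in both genotypes, with a median of -0.69 in OE and -0.53 in WT, beside -0.06 and -0.05 for all tested genes. In OE both ABA arrays lay below both water arrays for all 5 genes, and in WT the arrays overlapped for all 5. The share of all tested genes separated in this way was not counted. The interaction had a median of -0.16 over the 5 genes (lowest adjusted p 0.678, limma), so their ABA response is not shown to differ between OE and WT. Of 11 other SAUR genes tested, 10 had negative log2 differences between ABA and water in OE and 11 in WT, with medians of -0.89 and -0.61. Of these, 0 were called in any of the comparisons, where the share of all tested genes between groups ran from 0.843% to 19.2%.

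The 2 arrays of WT under ABA differed for many members. Replicate 1 was higher than replicate 2 for 27 of 33 members, and by more than 1 on the log2 scale for 12 of them (36.4%), against 2.07% of all tested genes. These 12 were SAUR19 to SAUR23, by 1.67 to 1.97, IAA5 by 1.85, IAA19 by 1.75, IAA29 by 1.59, IAA6 by 1.56, GH3.3 by 1.38, IAA1 by 1.33 and IAA4 by 1.26. GH3.17 went the other way, with replicate 1 minus replicate 2 at -1.10. IAA19, known as MSG2, acts in bending toward light, and IAA29 is induced in shade. The median absolute gap over the members was 0.66 in WT under ABA, 0.55 in OE under ABA, 0.28 in OE in water and 0.25 in WT in water, beside 0.19, 0.27, 0.20 and 0.22 for all tested genes. In OE under ABA 5 members had a gap over 1, in OE in water 1 and in WT in water 2. The 2 arrays of WT under ABA lay on different slides, which cannot be told apart from a difference between the plants, and no test was made, since the gap was noticed in these arrays. IAA5 (AT1G15580), an early auxin-induced repressor, had signals of -0.76 and -0.34 in OE under ABA, against -0.70 and -2.55 in WT under ABA, and its log2 difference of 1.07 was not called (standard error 0.58, adjusted p = 0.242).

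**Figure D4:**
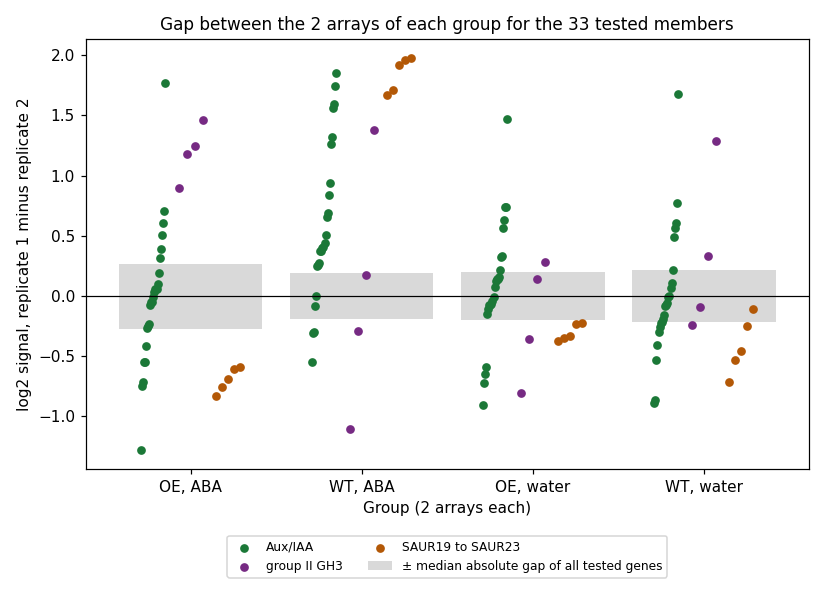
The log2 signal of replicate 1 minus that of replicate 2 (y axis) is plotted for each of the 33 tested members in the 4 groups, by family, over a grey band of plus and minus the median absolute gap of all tested genes. In WT under ABA the 5 SAUR genes lie between 1.67 and 1.97 and the median absolute gap of the members is 0.66, against 0.19 for all tested genes.

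Genes of the rest of the auxin pathway were counted in short lists. Between OE and WT, 9.91% of all tested genes were called under ABA and 19.2% in water. Between ABA and water the shares were 2.12% in OE and 0.843% in WT. Against these shares, lists this short do not show that the pathway was called more or less often than genes at large. Of 6 auxin receptor genes and 5 activating ARF genes, 0 were called in any comparison, and likewise 0 of 2 auxin oxidase genes. Of 10 repressing ARF genes, ARF3, which acts in flower and leaf polarity, was called higher in OE under ABA, with signals of 1.09 and 0.73 in OE, against -0.19 and -0.16 in WT, and a log2 difference of 1.09 (adjusted p = 0.0183, limma). In water its log2 difference was just under 2-fold (0.97), and under ABA it was lost without OE under ABA replicate 1 (adjusted p = 0.075), WT under ABA replicate 1 (adjusted p = 0.0991) or WT under ABA replicate 2 (adjusted p = 0.0851). Of 11 auxin transport genes, the exporter gene ABCB19 was called higher in OE under ABA (1.14, adjusted p = 0.014) and the influx carrier gene LAX1 in water (1.15, adjusted p = 0.019). With normexp and with only the 2 groups compared fitted, ARF3 (adjusted p = 0.0771 and 0.0526), ABCB19 (0.0778 and 0.0584) and LAX1 (0.091 and 0.058) were not called. ABCB19 was lost without OE under ABA replicate 1 or either WT array under ABA, with adjusted p-values from 0.0546 to 0.0756, and LAX1 without either OE array in water or WT in water replicate 1, from 0.0535 to 0.0975.

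Of 7 auxin synthesis genes tested, YUC8 and YUC9, which encode the enzymes of the last step, were called lower in OE in water. YUC9 had signals of -4.80 and -3.51 in OE, against -1.80 and -1.79 in WT, and fell by 2.36 on the log2 scale (adjusted p = 0.0251, limma), and YUC8 fell by 2.02 (adjusted p = 0.0459). YUC9 was lost without OE in water replicate 1 or either WT array in water (adjusted p up to 0.0888), and YUC8 without 6 of the 8 arrays in turn (adjusted p up to 0.176), the exceptions being the OE arrays under ABA. With normexp neither was called (YUC9 -1.60, adjusted p = 0.0888, and YUC8 -1.13, adjusted p = 0.279), and YUC8 was not called with no filter on dim probes (adjusted p = 0.0738) or with the replicate block (adjusted p = 0.0536). Of 5 GH3 genes not among the members, 4 were tested, with positive log2 differences between OE and WT in water for all 4 (median 0.69). One of them, GH3.9, which like GH3.5 belongs to group II, was called higher in OE in water, with -1.98 and -2.34 in OE, against -4.06 and -3.82 in WT (1.78, adjusted p = 0.00736), whatever array was left out but not with normexp (1.24, adjusted p = 0.264). Its direction in water is opposite to that of GH3.5. GH3.9 was also called lower under ABA than in water in OE (-1.73, adjusted p = 0.0359), and lost that call without 6 of the 8 arrays in turn, all but the 2 WT arrays under ABA, and with normexp, where it was -0.27 (adjusted p = 0.791), no filter on dim probes (adjusted p = 0.0715), only the 2 groups compared (adjusted p = 0.0811) or the replicate block (adjusted p = 0.074).

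Other groups of genes also differed between OE and WT, where 9.91% of all tested genes were called under ABA and 19.2% in water. The 6 evening genes of the circadian clock were higher in OE in both conditions, all called, and of 5 morning genes 5 were called lower under ABA and 4 in water. The summed signal of the evening genes was 15.5 to 20.1 in OE under ABA and 1.62 to 1.81 in WT under ABA, and 7.80 to 8.15 in OE in water and 2.14 to 2.32 in WT in water. Of 7 cell cycle genes, 7 were called higher in OE in water, with a median log2 difference of 2.54, and under ABA all 7 had positive log2 differences of 1.06 to 1.84 (median 1.52) that were not called (lowest adjusted p 0.0645). Of 8 floral marker genes, 7 were tested and all had higher means in OE, SEP1 being called in both conditions and SEP3 in water. In each OE group 7 of the 8 were above background on both arrays, against 2 in each WT group. Some of them therefore passed the filter on dim probes only through the OE arrays, and their direction was fixed by that. The part of all these groups of genes in the differences of the auxin genes was not tested.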

How the data were processed

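Per the file headers, the deposited scanner files hold spot intensities from Feature Extraction software run by the authors, with the background subtracted and with flags for outlier, saturated and well-above-background spots. The deposited series table holds log2 values whose columns share 1 distribution, as quantile normalization gives, and served as an alternative. The methods name MAS 5.0, which settles no scaling for these arrays, so the processed signals were put on a log2 scale here and the 75th percentile of the array was subtracted. Outlier spots were left out, and 31267 of 43603 gene probes, namely those that exceeded background clearly in a whole group (both arrays), entered limma 3.58.1 in R 4.3.3 as 4 group means (4 residual and 1.99 prior degrees of freedom), after the fit had been tested on simulated data. Of these, 1156 lacked a value on at least 1 array.

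Accessions of 34348 probes (78.8%) matched locus tags in RefSeq's table for TAIR10.1, used for names only. A gene with several probes, 9 of the members, was read from the one with the highest mean signal. Between the 2 design versions 208 probes had another systematic name, 0 of them members' probes. The members and lists were chosen with earlier results of these data known. Values per array are given for members called in at least 1 comparison, for the GH3 and SAUR genes and for the extremes of a family with no call, and for called genes of the other lists. IAA28, IAA8 and IAA5 were added after their values were seen. Alternatives changed the normalization, background correction, dim-probe filter, arrays fitted, blocks, thresholds and test. The design text names 2 independent experiments with different plants, and with 2 arrays per group the number of arrays limits the precision.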

Additional observations from a re-analysis of the deposited data

How the results depend on the processing

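With 2 arrays per group, most calls were lost when some single array was left out. Such a fit has fewer arrays to estimate the spread, and several losses came with little change in the log2 difference. A lost call therefore does not show that the call rested on that array. When each array was left out in turn, the members called between OE and WT numbered 1 to 3 under ABA and 1 to 6 in water, those between ABA and water 0 in WT and 0 to 1 in OE, and those for the interaction 0. Under ABA 2 members were called in the analysis above, against 1 when only the 2 groups compared entered the fit, 0 when every array had to be well above background and 0 under normexp background correction, which here used median signals. In water 5 were called, against 1 under normexp, 8 with no minimum fold and 9 at an unadjusted p under 0.05 with at least 2-fold. The methods' t-test (Welch's) with the same minimum fold called 0 members under ABA and 2 in water unadjusted, and 0 in each after adjustment. After adjustment it also called 0 of all 31267 tested probes in each, so that count says nothing particular to the members. At an unadjusted p under 0.05 and at least 2-fold, ABA against water gave 1 member in WT and 5 in OE, and the interaction 5. The shares of all tested genes at these looser thresholds, also those used in water, were not counted. The counts are therefore not read as a result about the members. The slide as a random block gave 1 member between ABA and water in WT. Normexp was run with an offset of 50, added to the corrected signals before the log2 step. It also moved the median log2 difference of all tested genes between OE and WT under ABA to 0.26, against 0.08. The cause of its fewer calls, including any part of the offset, was not tested. Of the calls in water, GH3.5 was made in 13 of 16 alternatives, IAA2 in 14, IAA14 in 12, IAA6 in 9 and IAA33 in 14 of 15. Under ABA IAA20 and IAA33 were each made in 11 of 15. Both passed the filter on dim probes only through the OE arrays, so their counts are not separate support. The t-test and the changed thresholds are not among these alternatives. No called member changed sign in them, but many could not move the log2 difference of a gene. Such were the blocks, the dim-probe filters, the fit of only the groups compared and the leaving out of arrays of other groups.

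With the replicate number as a block, OE against WT gave 2 called members under ABA and 4 in water, where IAA6 was lost (adjusted p = 0.0555), and 0 in the other comparisons. Between pairs of groups, the deviations of the replicate 1 arrays from their group means had correlations from -0.178 to 0.113 over the tested probes. Whether same-numbered samples came from the same experiment was not tested. Promoter motifs were not searched, since no promoter sequence was used here.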
